A study of Mus with 96 samples.

Results

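The liver transcriptome of clock-competent mice fed a choline-deficient high-fat diet (cdHFD) was followed over the day. The 24 libraries labelled Hep-Bmal1WT and cdHFD were taken from the 96 libraries of the series, with 4 mice at each of 6 Zeitgeber times (ZT2, ZT6, ZT10, ZT14, ZT18 and ZT22, in hours after lights on). Per the study's methods, these mice carried Alb+/+ Bmal1 flx/flx, so both Bmal1 alleles were floxed and no Cre was present. They were C57BL/6J littermate controls, 8 to 10 weeks old when housed for the study, kept in 12 h of light and 12 h of darkness, and ate cdHFD freely for 2 weeks. The group held 13 males and 11 females, with 2 of each sex at every ZT except ZT14, which had 3 males and 1 female. Each mouse was killed once, so a rhythm here is a pattern across animals.

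As background, the mammalian clock is a feedback loop in which BMAL1 pairs with CLOCK or NPAS2 and turns on the period and cryptochrome genes, whose proteins then block that pair. REV-ERB receptors repress Bmal1 and ROR receptors activate it, and the PAR bZIP factors carry the rhythm to output genes. In liver the loop and the feeding rhythm time the synthesis of cholesterol, bile acids, fat and glucose. A diet poor in choline limits phosphatidylcholine synthesis and with it the export of fat from hepatocytes.

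The libraries were 3′ tag counts (BRB-seq) and held between 5264167 and 7394124 reads assigned to genes, with a median of 6213499.5. No 2 libraries were identical, and the sex genes matched the label in 24 of 24 libraries. Levels are given as CPM, the reads of a gene scaled to library size with TMM factors, and they compare 1 gene across libraries, not 1 gene with another. Alb, the serum albumin gene that marks hepatocytes, averaged 59240 CPM. Several libraries stood apart. On the clock genes and on 20 other genes that separate the genotype labels, ZT10 replicate 3 and ZT14 replicate 1 lay nearer to the livers labelled Hep-Bmal1KO than to those of their own label. Their positions were 1.52 and 0.87 on the clock genes and 1.23 and 1.09 on the other genes, where 0 is the median of the label and 1 that of the knockout. On the clock genes alone, 5 other libraries also lay above 0.5, the highest being ZT18 replicate 1 at 0.9, but on the other genes none of these passed 0.34. Genes of muscle, pancreas and fat were high in ZT2 replicate 3, where Ckm, a muscle creatine kinase, reached 113 CPM against at most 0.314 CPM in the other ZT2 libraries. Tff1, a stomach gene, reached 155 CPM in ZT18 replicate 3 and 9.45 CPM in ZT18 replicate 4.

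The 4 ZT10 libraries differed most from the rest. In a contrast added after the data were seen, 3069 of 15548 genes (19.7%) differed between ZT10 and the mean of the other ZTs at an adjusted p under 0.05 (edgeR quasi-likelihood, Benjamini-Hochberg), with 1538 higher and 1531 lower. The same contrast called between 102 and 714 genes at each other ZT. ZT10 was also the time with most calls in the other 3 groups of the series, with 3706 genes in Hep-Bmal1WT livers on chow, 2592 in Hep-Bmal1KO livers on chow and 2798 in Hep-Bmal1KO livers on cdHFD. Mitochondrial transcripts took between 7.22% and 8.6% of the reads at ZT10 and between 3.12% and 7.13% elsewhere. Across genes, the ZT10 difference had a Spearman correlation of 0.19 with the length of the gene on the genome. The values at the other ZTs of this group were between -0.071 and -0.039, but the mean they are set against includes ZT10. In the other 3 groups, in the order above, the value at ZT10 was 0.14, 0.15 and 0.17. At the other ZTs of those groups it was between -0.19 and 0.11. Genes are not independent replicates, and no p is given. The mice of 1 ZT also have neighbouring mouse numbers in the labels, so time of day and anything that goes with those numbers cannot be told apart. Counts of 24 h rhythmic genes are therefore given with and without the ZT10 libraries, whereas the 12 h, 8 h and sex terms were not refitted without them.

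A 24 h cosine was fitted to the counts of each of 15548 genes. It called 2264 genes rhythmic (14.6%) at an adjusted p under 0.05 (edgeR quasi-likelihood). Without the 4 ZT10 libraries the fit called 1342 genes (8.63%), and 1162 genes (7.47%) were called both ways. A loss of this size was not particular to ZT10. The fit called 1190 genes without ZT18 and 1458 without ZT22, but 1844, 2664 and 2381 without ZT2, ZT6 or ZT14. The amplitude, which is the distance from the daily mean to the peak in log2 units of variance-stabilized counts, had a median of 0.311 among the 2264 genes, with quartiles of 0.251 and 0.398. Only 23 genes had an amplitude of at least 1. Library names place ZT2 and ZT6 in column 4, ZT10 and ZT14 in column 5, and ZT18 and ZT22 in column 6. With that column as a factor, so that only differences inside a column counted, 285 genes were called, of which 196 were among the 2264. In that fit 1 gene of each of the 4 clock lists below was called. The 24 h fit called 908 genes in males alone and 384 in females alone.

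Peak times covered the whole day. Of the 2264 genes, 521 peaked between ZT16 and ZT20, 460 between ZT4 and ZT8 and 447 between ZT8 and ZT12, whereas 217 peaked between ZT12 and ZT16. The 2 windows nearest to ZT10 and its opposite lost most without those libraries. Of the genes peaking at ZT8 to ZT12, 83 (18.6%) were also called without ZT10, and of those peaking at ZT20 to ZT24, 66 (20.6%) were. In the other 4 windows the share was between 62.8% and 72%. Of the 1162 genes called both ways, 313 peaked at ZT4 to ZT8 and 375 at ZT16 to ZT20, a distribution that the requirement of a call without ZT10 itself shapes. The peaks of the 1162 genes moved by a median of 0.552 h when ZT10 was left out, and 1104 of them moved by at most 2 h.

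**Figure D1:**
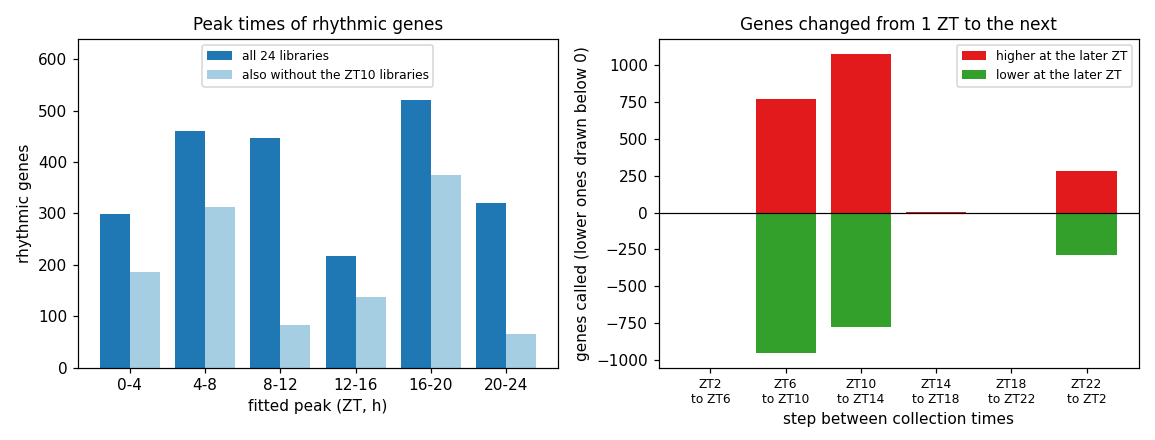
Left, number of rhythmic genes by fitted peak time in 4 h windows for all 24 libraries (dark) and for the genes also called without the ZT10 libraries (light); the light bars fall to 83 genes at ZT8 to ZT12 and 66 at ZT20 to ZT24. Right, genes called between neighbouring collection times, with those higher at the later ZT above 0 and those lower below it; the bars at ZT6 to ZT10, ZT10 to ZT14 and ZT22 to ZT2 hold nearly all of the calls.

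A test over the 6 ZTs as separate groups, which asks for a difference of any shape, called 3162 genes (20.3%), of which 1810 were also called by the cosine. Neighbouring times differed unequally. From ZT6 to ZT10, 772 genes rose and 950 fell (11.1% called), and from ZT10 to ZT14, 1077 rose and 779 fell (11.9%). From ZT22 to ZT2, across lights on, 285 genes rose and 289 fell (3.69%). In contrast, 1 gene (0.00643%) was called from ZT2 to ZT6, 2 genes (0.0129%) from ZT14 to ZT18 and 0 genes (0%) from ZT18 to ZT22. At an unadjusted p under 0.05 these 3 steps held 1512, 969 and 620 genes, and DESeq2 called 78, 11 and 2.

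The step across lights on was led by clock outputs. Nr1d1 rose by 4.68 on the log2 scale from ZT22 to ZT2 (adjusted p = 2.2e-11, edgeR), Dbp by 3.93 (adjusted p = 5.8e-09) and Tef by 2.24 (adjusted p = 5.1e-07). Cry1 fell by 2.62 (adjusted p = 5.4e-07) and Cks2, a regulator of cyclin-dependent kinases, fell by 1.29 (adjusted p = 4.8e-07). Lpin1 fell by 1.72 from ZT14 to ZT18 (adjusted p = 0.033), whereas Kif22, a mitotic motor protein, rose by 1.49 (adjusted p = 0.026). The single call from ZT2 to ZT6 was Igfbp5, an IGF-binding protein, which fell by 2.32 (adjusted p = 0.026).

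Some genes were among those of smallest p in both steps around ZT10, and these changed at that time and then returned. Because they were picked by their p at these steps, their separation at ZT10 is a description and no independent test. Rab5if, a partner of the endosomal GTPase RAB5, stood at 355, 406, 343 and 404 CPM at ZT6. At ZT10 it stood at 161, 89.5, 94.7 and 105 CPM, and at ZT14 at 410, 392, 425 and 392 CPM. All 4 ZT10 libraries lay below every library of both neighbouring times. It fell by 1.74 on the log2 scale from ZT6 to ZT10 (adjusted p = 5.1e-08) and rose by 1.85 from ZT10 to ZT14 (adjusted p = 1.2e-08), while its 24 h rhythm was not called (adjusted p = 0.085). Ostc, a subunit of the oligosaccharyltransferase that glycosylates new proteins, fell by 1.21 (adjusted p = 2.6e-07) and then rose by 1.45 (adjusted p = 1.2e-08). The pseudogene Tpt1-ps3 rose by 1.58 (adjusted p = 1.1e-05) and then fell by 1.59 (adjusted p = 7.4e-06); its reads may be shared with its parent gene.

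All 3 members of the positive limb of the clock were rhythmic, also without ZT10, with peaks in the dark. Arntl, the gene of BMAL1 (chromosome 7, 113178471 to 113314126, GRCm38.p6), held 6.15, 2.01, 8.98 and 5.66 CPM at ZT2 and 0.298, 0.637, 0.78 and 2.52 CPM at ZT6. At ZT10 it held 3.01, 3.46, 8.01 and 2.66 CPM and at ZT14 5.38, 17.9, 14.6 and 22.7 CPM. At ZT18 the values were 25, 23.1, 20.6 and 20.6 CPM, and at ZT22 they were 23.7, 21.6, 26 and 27 CPM. The late-dark libraries lay above all libraries of the light phase without overlap, and the high value at ZT10 and the low one at ZT14 came from the 2 libraries that went against their label. Its amplitude was 1.53 ± 0.14 (SE) with a peak at ZT18.7 ± 0.36 (adjusted p = 1.7e-07), and 1.61 without those 2 libraries. Those libraries were singled out on the clock genes and on genes that separate the genotype labels. Values without them, of clock genes or others, are therefore a description and no independent test. Npas2, the paralog of Clock, rose from 0, 0.159, 0.624 and 0.158 CPM at ZT6 to 8.84, 10, 10.6 and 15 CPM at ZT22. It was called (adjusted p = 0.032, 5.8e-08 without those 2 libraries), although the call was lost in 6 of the 24 fits that leave out 1 library, with the highest adjusted p at 0.059 without ZT6 replicate 1. The change of Clock was shallower, from 11 ± 1.9 CPM (SD, n = 4) at ZT6 to 22.2 ± 5.4 CPM at ZT22 (adjusted p = 0.019).

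Of 8 repressors, 5 were rhythmic and followed each other through the day. Ciart, a repressor of the CLOCK and BMAL1 pair, came first, with a peak at ZT5.3 ± 0.6; it held 12.1, 13.8, 8.42 and 10.9 CPM at ZT6 and 0.312, 0.309, 0.512 and 0.266 CPM at ZT18. Per3 peaked at ZT6.59 ± 0.48 and fell from 15.7, 12.4, 14.8 and 12.8 CPM at ZT6 to 2.07, 0.945, 0.539 and 0.911 CPM at ZT22. Per1 peaked at ZT7.26 ± 0.52, with 18.8, 15.4, 16 and 16.3 CPM at ZT10 and 7.33, 4.94, 3.92 and 2.66 CPM at ZT18. Per2 followed at ZT10.1 ± 0.52. It held 34.9, 27.7, 19.9 and 27.4 CPM at ZT10 and 8.65, 2.84, 9.3 and 7.29 CPM at ZT22, with no overlap between these times. Cry1 came last, at ZT16.2 ± 0.39, and stood at 39.9, 41.5, 36.8 and 34.2 CPM at ZT14 against 5.44, 5.88, 3.97 and 3.3 CPM at ZT2, a ratio of means of 8.2. Each of the 5 was called in all 24 fits that left out 1 library and also without ZT10. The other 3 members were not called, with adjusted p = 0.4 for Cry2, 0.78 for Bhlhe40 and 0.29 for Bhlhe41 (edgeR).

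The REV-ERB receptors, which silence Bmal1, were high in the light phase. Nr1d1, the gene of REV-ERBα (chromosome 11, 98767932 to 98775377), held 78.7, 78, 60.8 and 54.7 CPM at ZT2 and 27.9, 25, 44.4 and 30.1 CPM at ZT6. It then dropped to 7.68, 10.2, 3.75 and 5.13 CPM at ZT10 and to 1.47, 4.37, 1.46 and 1.2 CPM at ZT14. It stayed low, with 2.34, 2.16, 2.22 and 2.66 CPM at ZT18 and 2.44, 3.97, 1.48 and 2.89 CPM at ZT22. Every ZT2 library lay above every library of the other times. The mean at ZT2 was 32.1 times that at ZT14, and the fitted amplitude was 1.94 ± 0.22 with a peak at ZT4.13 ± 0.43 (adjusted p = 1.1e-09). A single cosine described it only in part, since a 12 h term was called as well (adjusted p = 0.0027). Nr1d2, its paralog, peaked at ZT5.89 ± 0.5 and held 58.3, 63.3, 63.9 and 49.8 CPM at ZT6 against 11.9, 7.41, 7.68 and 9.58 CPM at ZT18. Rora, a receptor that activates Bmal1, was not called (adjusted p = 0.71).

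All 4 output factors were called, also without ZT10. Dbp, a PAR bZIP activator (chromosome 7, 45705100 to 45710203), held 108, 243, 65.2 and 97 CPM at ZT2 and 180, 203, 202 and 226 CPM at ZT6. At ZT10 it held 63.1, 77.6, 24.2 and 54 CPM, with the lowest value in ZT10 replicate 3. At ZT14 the values were 14.5, 19.1, 12.4 and 13.5 CPM, at ZT18 8.42, 11.7, 11.6 and 7.72 CPM and at ZT22 8.46, 7.94, 7.68 and 9.57 CPM. All light-phase libraries lay above all dark-phase libraries. With an amplitude of 2.16 ± 0.19 and a peak at ZT5.75 ± 0.34 (adjusted p = 4.2e-10), Dbp had the largest amplitude among rhythmic genes with a mean of at least 10 CPM. Tef peaked at ZT7.46 ± 0.55, with 83.2, 82.8, 73.3 and 82.7 CPM at ZT6 and 13.7, 11.5, 13.6 and 13.1 CPM at ZT22. Hlf, the third factor of this family, was also called with a smaller amplitude of 0.41 ± 0.09. Nfil3, which represses the sites that the PAR factors activate, peaked at ZT18.3 ± 0.59 and rose from 2.39, 6.21, 4.83 and 8.35 CPM at ZT6 to 37.4, 35.4, 20.4 and 27.6 CPM at ZT22.

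**Figure D2:**
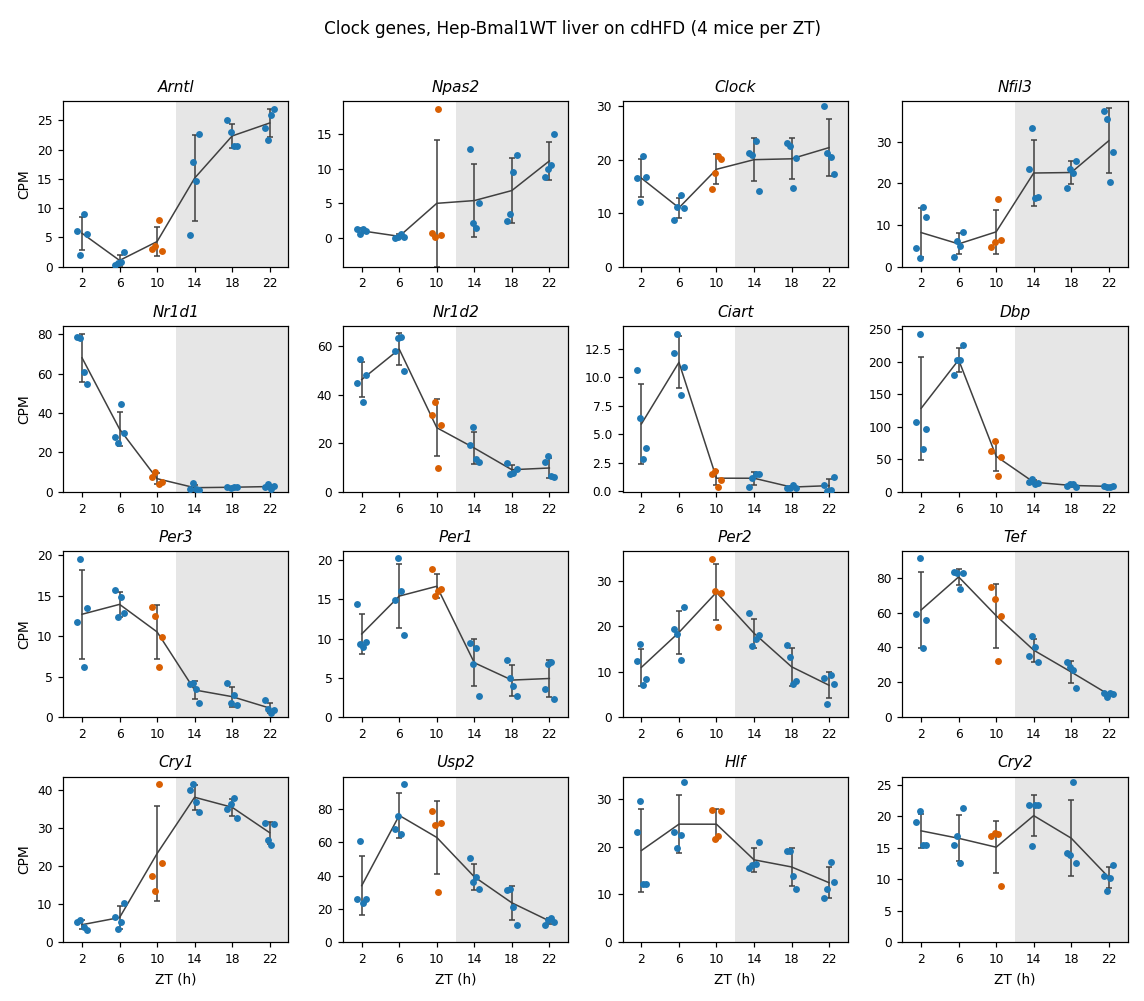
CPM (vertical axis, linear) of 16 genes of the clock and its modulators by ZT in hours; each point is 1 mouse, ZT10 in orange, lines join the means, bars are SD (n = 4) and grey marks darkness. Nr1d1, Nr1d2, Ciart and Dbp are high at ZT2 or ZT6, the period genes at ZT6 or ZT10, Cry1 at ZT14, and Arntl and Nfil3 at ZT22; the ZT10 point far above the others for Npas2 and Cry1 is replicate 3.

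Among 16 further clock modulators, 6 were rhythmic, and 4 of these also without ZT10. Usp2, a deubiquitinase that acts on clock proteins, led with an amplitude of 1.05 ± 0.14 and a peak at ZT8.55 (adjusted p = 3e-06); its level fell from 76.1 ± 13.5 CPM (SD, n = 4) at ZT6 to 12.9 ± 1.7 CPM at ZT22. Noct, a phosphatase of NADP(H), peaked at ZT8.33 (adjusted p = 0.00044), and Timeless at ZT7.07 (adjusted p = 0.0015). Id2 peaked in the dark, at ZT18.1, with an amplitude of 0.35.

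The metabolic lists were read against the 14.6% of all genes and their median amplitude of 0.15; the lists were chosen with earlier results of these data known, and no list was tested as a set. With the library column as a factor, each list from here on held between 0 and 6 calls, and the column cannot be fully separated from time of day. Cholesterol synthesis held 7 rhythmic genes of 19 (36.8%), 6 of them also called without ZT10. The count was 5 with the library column as a factor, 1 in males alone and 0 in females alone. The amplitudes of the 7 were small, with a median of 0.306, and 5 of the 7 peaked in the dark. Dhcr7, Fdps and Cyp51 peaked between ZT15 and ZT15.8, Pmvk at ZT17.5 and Ebp at ZT19.6. Sqle and Hmgcs1 were not called, with adjusted p = 0.64 and 0.091 (edgeR).

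Among the controls of sterol level, Insig2, which holds SREBP in the endoplasmic reticulum, rose from 114, 109, 113 and 108 CPM at ZT6 to 713, 470, 503 and 499 CPM at ZT22. Its 4 ZT6 libraries differed by little, and none reached the lowest ZT22 value. The amplitude was 0.97 ± 0.12 with a peak at ZT19.2 ± 0.47 (adjusted p = 7.6e-07). Srebf1, the factor that drives lipogenic genes, was called with all libraries (adjusted p = 0.0042) but not without ZT10 (adjusted p = 0.11), and 7 of the 14 members of this list were called with all libraries, 3 of them also without ZT10. Of 9 genes of sterol efflux and esterification, 4 were called, and 3 of these peaked in the light phase and were also called without ZT10. Abcg5 and Abcg8, the pair that pumps sterols into bile, peaked at ZT6.26 and ZT6.43, and Abcg8 fell from 65.1 ± 15.9 CPM (SD, n = 4) at ZT2 to 21.8 ± 2.5 CPM at ZT22 (adjusted p = 0.0011). Soat2, which esterifies cholesterol, peaked at ZT4.9.

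Bile acid synthesis was split in time. Cyp7a1, its rate-limiting enzyme (chromosome 4, 6265612 to 6275632), held 99.2, 111, 204 and 152 CPM at ZT6 and 83.2, 27.6, 34.6 and 31.8 CPM at ZT14, where the highest value belonged to ZT14 replicate 1. It peaked at ZT5.85 ± 0.94 (adjusted p = 0.0011). Cyp8b1, the 12α-hydroxylase that sets the share of cholic acid, peaked at ZT21.8 ± 1. It held 46.2, 27, 46.1 and 62.6 CPM at ZT18 and 2.56, 10.9, 41 and 5.13 CPM at ZT10; the ZT10 library inside the ZT18 range was replicate 3. The adjusted p was 0.015 with all libraries and, as a description only, 0.0023 without the 2 libraries that went against their label. The list counted 3 rhythmic genes of 12 (25%), 2 of them also without ZT10, and Nr0b2, the repressor SHP, was not among them (adjusted p = 0.87).

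The lipogenic genes that were rhythmic peaked between ZT9.37 and ZT17.6, 4 of them between ZT12 and ZT16. Of 13 tested members, 6 were rhythmic (46.2%), and 5 of these also without ZT10. Thrsp, a lipogenic spot protein of liver, had the largest amplitude of the list (1.46 ± 0.18) and peaked at ZT9.37 ± 0.48. Its values were 236, 154, 42.4 and 226 CPM at ZT10 and 17.1, 11.5, 20.9 and 19.1 CPM at ZT22, so even the low ZT10 replicate 3 lay above all of ZT22 (adjusted p = 3.2e-07). Fasn, the fatty acid synthase, peaked at ZT13.4 ± 0.67 and held 166, 276, 483 and 184 CPM at ZT14 against 100, 90.9, 75.2 and 92.3 CPM at ZT6 (adjusted p = 0.00019). Elovl6 peaked at ZT13.1, Acly at ZT15.2 and Fads1 at ZT17.6. Scd1, the stearoyl-CoA desaturase, was not called (adjusted p = 0.22).

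Triglyceride handling moved in steps, with 9 of 21 members called and 6 of them also without ZT10. The lipase gene Pnpla2 peaked first, at ZT4.59, and Lpin1, a phosphatidate phosphatase, peaked at ZT9.01 ± 0.59. Lpin1 held 116, 111, 128 and 68.8 CPM at ZT10 and 32.9, 23, 14.3 and 18.1 CPM at ZT18 (adjusted p = 6.3e-05). Agpat2, which makes phosphatidic acid, peaked at ZT17.6 ± 0.29. Although its amplitude was 0.53, the spread was small, with 490 ± 26 CPM (SD, n = 4) at ZT18 and 251 ± 27 CPM at ZT6 (adjusted p = 5e-08). The lipid droplet coat gene Plin2 peaked at ZT21.7 (adjusted p = 0.004), a call that was lost without ZT10 (adjusted p = 0.07). Cd36 and Dgat2 were not called, with adjusted p = 0.65 and 0.94 (edgeR).

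Fatty acid oxidation and PPARα targets held 6 rhythmic genes of 22 (27.3%), 5 of them also without ZT10. Cpt1a, the gate of mitochondrial fatty acid import, peaked at ZT5.98 ± 0.78 and Ppara itself at ZT7.44 ± 0.8. In contrast, Pdk4, Fgf21 and Acot1 peaked in the dark, at ZT17.3, ZT18.3 and ZT19.5. Acot1, an acyl-CoA thioesterase, held 244, 353, 319 and 377 CPM at ZT22 and 53.5, 48.7, 63.9 and 94.8 CPM at ZT10 (adjusted p = 0.00019). Fgf21, a hepatokine, varied widely between mice, with 166 ± 144 CPM (SD, n = 4) at ZT14 (adjusted p = 0.0093).

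Glucose and glycogen genes counted 9 rhythmic members of 23 (39.1%), 7 of them also without ZT10. G6pc, the last enzyme of glucose release (chromosome 11, 101367716 to 101377903), rose from 16, 11.3, 17.8 and 34.5 CPM at ZT6 to 242, 355, 228 and 230 CPM at ZT14. The ratio of means was 13.3, with an amplitude of 1.5 ± 0.23 and a peak at ZT16.3 ± 0.58 (adjusted p = 0.00015). Ppp1r3c, a scaffold of glycogen synthesis, peaked at ZT18.4 ± 0.35 and held 50.6, 47.5, 79.7 and 60.7 CPM at ZT22 against 9.4, 11.6, 4.99 and 11.2 CPM at ZT6 (adjusted p = 2.7e-08). Its paralog Ppp1r3b peaked at ZT13.4 and the glycogen synthase gene Gys2 at ZT8.69, whereas Pygl, the glycogen phosphorylase, peaked at ZT19.6. Pck1 was called with all libraries (adjusted p = 0.02) and not without ZT10 (adjusted p = 0.13).

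Genes of choline and methionine metabolism, the pathway that this diet restricts, held 6 rhythmic members of 17 (35.3%), 3 of them also without ZT10. Gpcpd1, which frees glycerophosphate and choline from glycerophosphocholine, peaked at ZT4.55 ± 0.53. It held 74.7, 72.4, 42.8 and 35.5 CPM at ZT2 and 15.1, 13.9, 13.5 and 12.6 CPM at ZT14 (adjusted p = 7.6e-07). Chka, choline kinase alpha, was high when Gpcpd1 was low. It held 26.7, 39.2, 37.9 and 26.8 CPM at ZT6 and 207, 186, 189 and 234 CPM at ZT22, with an amplitude of 1 ± 0.21 and a peak at ZT17.7 ± 0.79. Its adjusted p was 0.015 with all libraries, 2.3e-05 without ZT10 and, as a description only, 0.00019 without the 2 libraries against their label. Pemt, which makes phosphatidylcholine by methylation, and Bhmt were not called, with adjusted p = 0.4 and 0.9 (edgeR).

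**Figure D3:**
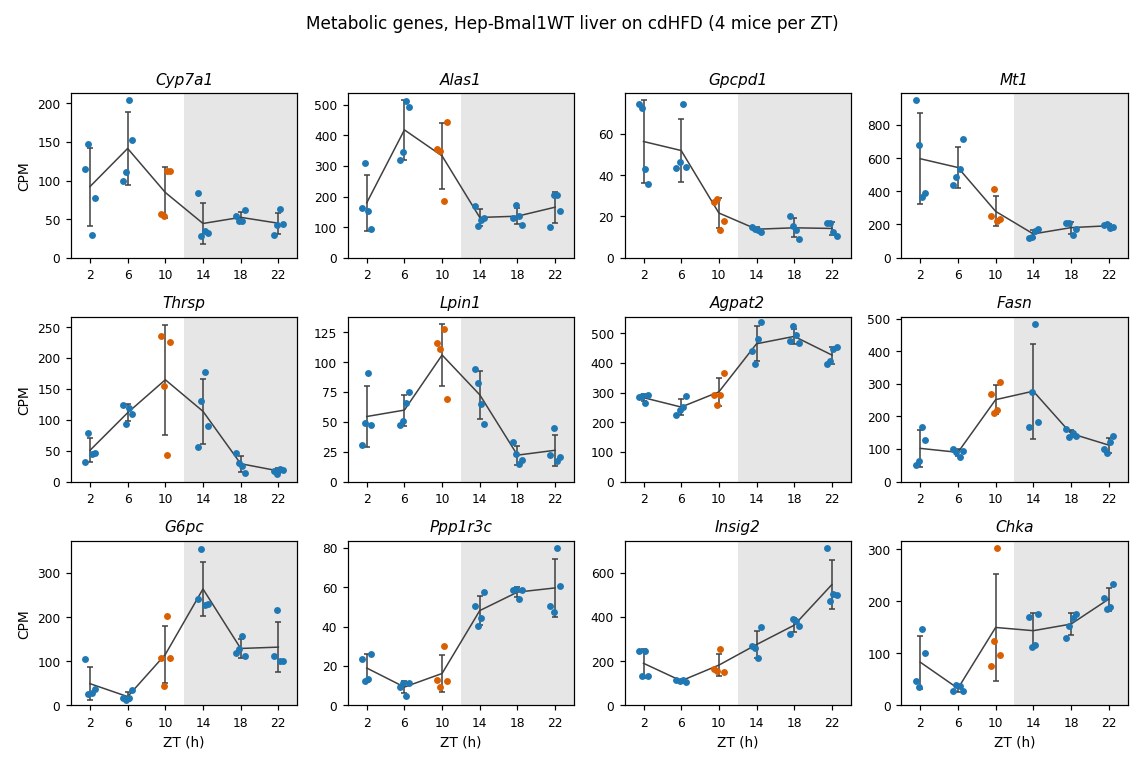
CPM (vertical axis, linear) of 12 metabolic genes by ZT in hours; each point is 1 mouse, ZT10 in orange, lines join the means, bars are SD (n = 4) and grey marks darkness. Cyp7a1, Alas1, Gpcpd1 and Mt1 are high in the first part of the light phase, Thrsp, Lpin1 and Fasn around ZT10 to ZT14, and Ppp1r3c, Insig2 and Chka at ZT22.

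Detoxification genes peaked together in the light phase: 7 of 19 were called (36.8%), 4 of them also without ZT10, and 6 of the 7 peaked between ZT4 and ZT8. Alas1, the first enzyme of heme synthesis, held 321, 346, 513 and 492 CPM at ZT6 and 169, 103, 122 and 131 CPM at ZT14, with a peak at ZT6.95 ± 0.78 (adjusted p = 0.00016). Por, the electron donor of cytochromes P450, peaked at ZT7.91 and the transporter Abcc2 at ZT7.2. The count fell to 4 without ZT22 replicate 1. Amino acid catabolism and the urea cycle held 8 rhythmic genes of 19 (42.1%), 4 of them also without ZT10, with Cps1 at ZT18.4 and Ass1 at ZT19.1, both urea cycle enzymes. This count was 5 without ZT10 replicate 1, ZT10 replicate 4 or ZT22 replicate 2, 6 in males alone and 0 in females alone. In NAD metabolism 4 of 12 genes were called, and Nampt, the salvage enzyme, was the 1 that was also called without ZT10, with a peak at ZT11.8 (adjusted p = 0.0037).

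Nearly all cell cycle genes were rhythmic. Of 25 members, 24 were called (96%, against 14.6% of all genes), and 23 of these also without ZT10; the other was Mcm7. The median amplitude of the 24 was 0.62. The count was between 23 and 25 when any 1 library was left out, 22 in males alone and 12 in females alone. With the column of the library names as a factor it was 6. The members fell in the order of the cell cycle. Of these, 10 were the replication licensing genes Mcm2 to Mcm7, the sliding clamp gene Pcna and the G1 cyclins Ccnd1, Ccne1 and Ccne2, and they peaked between ZT8.2 and ZT10.8. Mcm6 was the strongest of these (chromosome 1, 128331575 to 128359705), with 77.4, 71.3, 47.9 and 76.8 CPM at ZT10 and 15.2, 10.6, 18.5 and 15.3 CPM at ZT22 (adjusted p = 2e-08).

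The nucleotide synthesis genes came next. Rrm2, the small subunit of ribonucleotide reductase, peaked at ZT14.3 ± 0.37 and rose from 14.9, 15.9, 14.9 and 12.4 CPM at ZT2 to 72, 91.1, 86.6 and 77.7 CPM at ZT14 (adjusted p = 2e-08). Tyms, the thymidylate synthase, peaked at ZT15.1. The other 12 members, which act in chromosome condensation and mitosis, peaked between ZT15.3 and ZT19.4. Ccna2, cyclin A2, peaked at ZT18.1 ± 0.37 and held 20.1, 20.1, 26.6 and 25.8 CPM at ZT18 against 4.92, 8.28, 8.42 and 5.83 CPM at ZT6 (adjusted p = 5e-08). Cdc20, which activates the anaphase-promoting complex, was the last at ZT19.4 ± 0.43. Wee1, a kinase that holds back mitosis, was not called with all libraries (adjusted p = 0.092) but was called without ZT10 (adjusted p = 0.0026). In bulk liver, a change in the number of cells of a kind and a change of RNA per cell cannot be told apart, and which cells carried these transcripts was not tested.

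**Figure D4:**
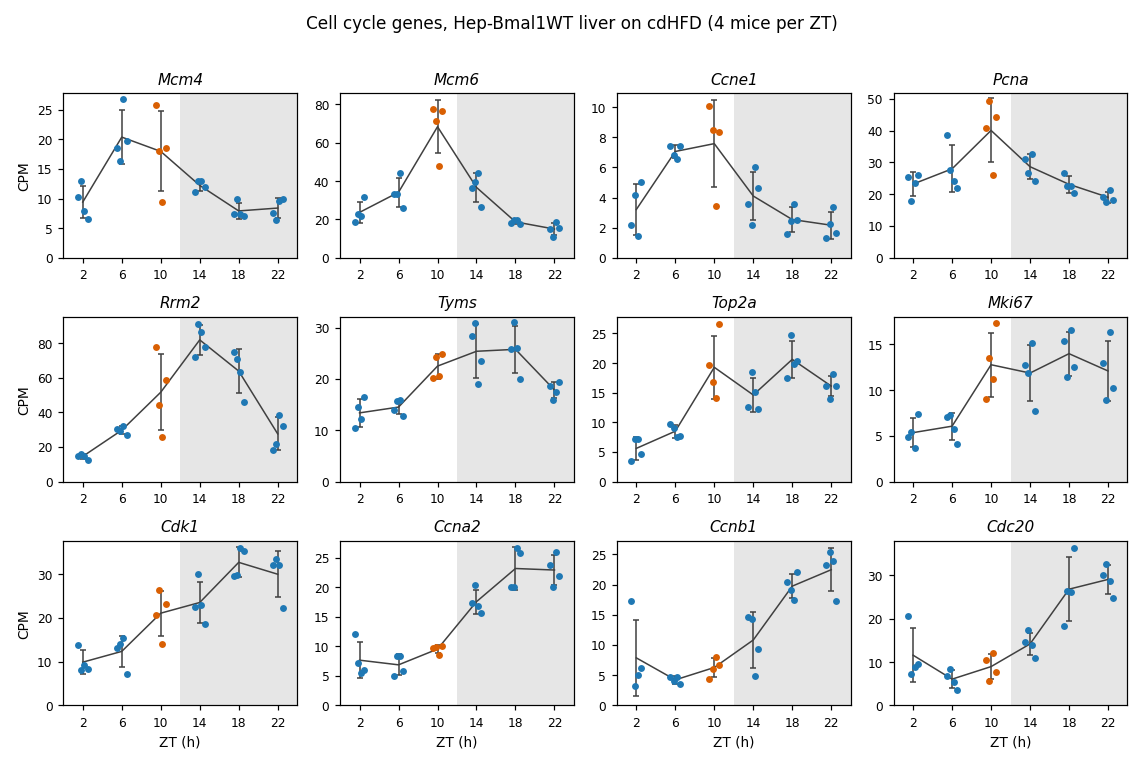
CPM (vertical axis, linear) of 12 cell cycle genes by ZT in hours; each point is 1 mouse, ZT10 in orange, lines join the means, bars are SD (n = 4) and grey marks darkness. Mcm6, Ccne1 and Pcna have their highest mean at ZT10, Rrm2 at ZT14, Tyms, Cdk1 and Ccna2 at ZT18, and Ccnb1 and Cdc20 at ZT22.

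Heat shock and cold-inducible genes, which follow body temperature, held 12 rhythmic members of 18 (66.7%), 9 of them also without ZT10, and 9 of the 12 peaked in the dark. The count was 0 with the library column as a factor, 8 in males alone and 3 in females alone. Hsp90aa1, Hsp90ab1, Chordc1 and Hspa4l, chaperones and a cochaperone, peaked between ZT15.4 and ZT15.8. Hspb1, a small heat shock protein, peaked at ZT18.8 ± 0.58 and held 281, 177, 166 and 278 CPM at ZT22 against 76.5, 101, 62.7 and 96.1 CPM at ZT6 (adjusted p = 1e-05). Cirbp, a cold-inducible RNA-binding protein, was high at the opposite time, with 55.8, 16.3, 8.98 and 9.28 CPM at ZT2 and 2.77, 5.16, 5.29 and 3.59 CPM at ZT14. All ZT2 libraries lay above all ZT14 libraries, yet the ZT2 mean owed much to 1 mouse (peak at ZT3.44 ± 0.83, adjusted p = 0.00013). Hspa8, a constitutive chaperone, was called with all libraries (adjusted p = 0.011) but not without ZT10 (adjusted p = 0.26).

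Glucocorticoid-responsive genes held 6 rhythmic members of 12, all 6 also without ZT10, and were spread over the day. The metallothioneins Mt1 and Mt2, which bind zinc, peaked at ZT4.35 and ZT3.88. Mt1 held 949, 681, 365 and 389 CPM at ZT2 and 116, 126, 158 and 171 CPM at ZT14 (adjusted p = 3.2e-07). Fkbp5 peaked at ZT8.93 and Tsc22d3 at ZT13.5, both classic targets of the receptor. Of 11 immediate early genes, 0 were called, with adjusted p between 0.13 and 0.89 (edgeR). Of 25 ribosome biogenesis genes, 9 were called (36%), all 9 with peaks in the light phase between ZT2.2 and ZT8.2, among them Ncl at ZT8.06 and Nolc1 at ZT5.88; 3 of the 9 were also called without ZT10 and 6 without ZT2 replicate 3. The unfolded protein response held 6 rhythmic genes of 20 (30%), 4 of them also without ZT10, with Sdf2l1, a chaperone cofactor, at ZT18.6 (adjusted p = 0.0006).

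**Figure D5:**
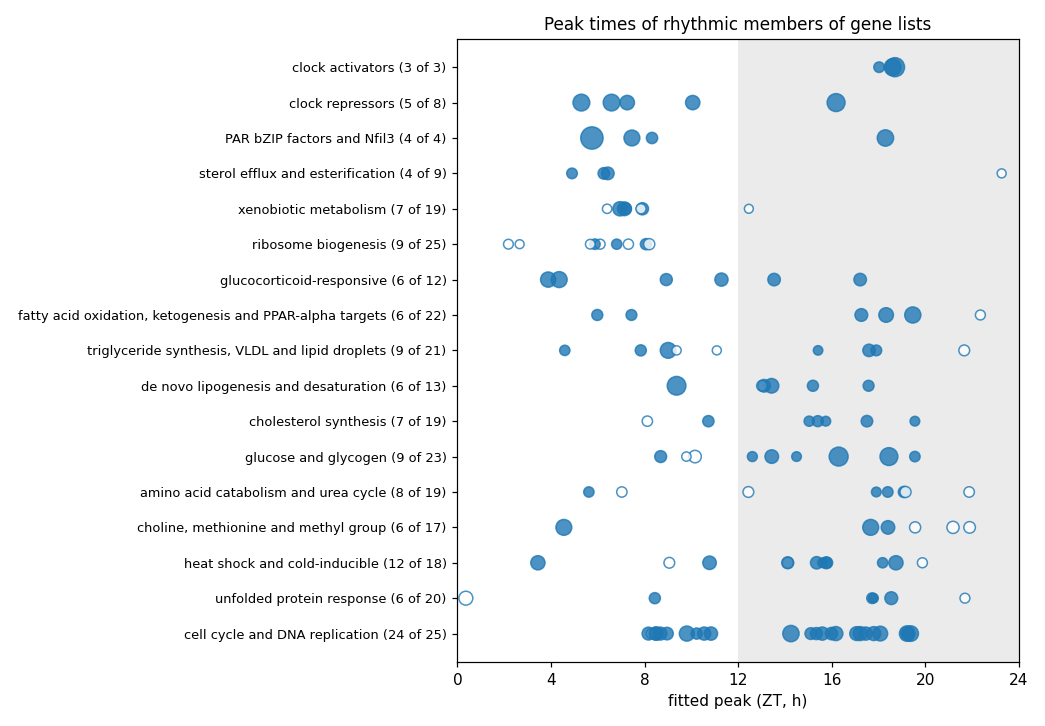
Fitted peak time (horizontal axis, ZT in hours) of the rhythmic members of 17 gene lists, with the number of rhythmic members of those tested beside each name; a circle is 1 gene, its area grows with the amplitude, filled circles were also called without the ZT10 libraries and grey marks darkness. Cell cycle genes form groups between ZT8.2 and ZT10.8 and between ZT14.3 and ZT19.4, and 6 of the 7 detoxification genes lie between ZT4 and ZT8.

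Smaller lists had single members that stood out. In the growth hormone axis, Socs2, a feedback inhibitor of the hormone's receptor, peaked at ZT2.8 (adjusted p = 0.00087), while Igf1 was not called (adjusted p = 0.15). Among acute phase and iron genes, 8 of 18 were called, 4 of these also without ZT10, led by the fibrinogen chain gene Fga at ZT21 (adjusted p = 0.00022). Tfrc, the transferrin receptor, peaked at ZT12.6 (adjusted p = 0.00027). The acute phase count was 5 without ZT10 replicate 2, ZT10 replicate 4 or ZT18 replicate 3. Autophagy held 2 of 13 (15.4%, near the 14.6% of all genes), or 5 without ZT6 replicate 4. Of the 2, 1 was also called without ZT10, Gabarapl1 at ZT0.02 (adjusted p = 4.4e-05). NRF2 targets held 4 of 11, all 4 also without ZT10. Slc30a10, a manganese exporter, was among the 12 largest amplitudes outside the lists, rising from 3.11 ± 0.94 CPM (SD, n = 4) at ZT6 to 25.7 ± 7.8 CPM at ZT22 (adjusted p = 1.9e-06). Ube2c, a mitotic ubiquitin-conjugating enzyme, was another, with 12.4 ± 6 CPM at ZT2 and 59.5 ± 6.1 CPM at ZT22 (adjusted p = 9.2e-06).

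Markers of other cells of the liver were followed in the same way. All 7 tested cholangiocyte genes were called, with peaks between ZT14.2 and ZT19.5, and 6 of them also without ZT10. Sox9, a factor of bile duct cells, held 22.1 ± 8.4 CPM (SD, n = 4) at ZT22 and 8.05 ± 1.5 CPM at ZT6 (adjusted p = 0.00036). The sum of the 7 genes was between 72.4 and 126 CPM at ZT2, between 87.1 and 116 CPM at ZT6, between 124 and 276 CPM at ZT10 and between 137 and 233 CPM at ZT14. It was between 105 and 245 CPM at ZT18 and between 103 and 203 CPM at ZT22, so both of these times overlapped ZT2. The highest sums at ZT10 and ZT14 came from ZT10 replicate 3 and ZT14 replicate 1, the libraries against their label, and all 7 genes were also called without them. The count fell to 4 without ZT6 replicate 1, ZT18 replicate 3 or ZT18 replicate 4, and was 2 in males alone, 5 in females alone and 0 with the library column as a factor. Of 21 macrophage genes, 4 were called (19%, against 14.6% of all genes) and 0 of these without ZT10. Leaving out 1 library moved this count between 2 (12 libraries in turn, among them ZT10 replicates 1, 2 and 4) and 8 (ZT14 replicate 1), and it was 7 without ZT6 replicate 3. Adgre1, the F4/80 antigen of macrophages, held 51.9, 75.3, 60.8 and 68.3 CPM at ZT22 and 24.8, 22.2, 21.5 and 15.8 CPM at ZT10, and was lower at ZT10 than at the other times (log2 difference -1.49, adjusted p = 9e-06). At ZT10, 11 of the 21 macrophage genes were lower than at the other times and 0 were higher, against 1531 lower and 1538 higher among all genes. Other lists also shifted at ZT10. Of 13 autophagy and lysosome genes, 7 were lower and 0 higher, and of 25 ribosome biogenesis genes, 1 was lower and 10 were higher. Of 15 matrix and stellate cell genes only Acta2 was called (adjusted p = 0.023), a call lost without ZT18 replicate 3 or ZT18 replicate 4. Of 9 endothelial genes, 2 were called (22.2%), 1 of them also without ZT10 and 1 when any of 15 libraries was left out. Of 6 neutrophil and 11 lymphocyte genes, 0 were called. Of 11 genes of pancreas, fat and muscle, 9 were called with peaks between ZT0.3 and ZT3.2. Without ZT2 replicate 3, where their sum was 461 CPM against 22 to 32.9 CPM in the other ZT2 libraries, 0 were called.

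A 12 h term added to the 24 h fit was called for 343 genes (2.21%), of which 122 were rhythmic, and an 8 h alternation, which also separates rows A to D from rows E to H of the library names, for 329 genes (2.12%). Ostc and Rab5if were among the genes of smallest p for both terms, with adjusted p = 0.00017 for the 12 h term and 5e-05 for the alternation. At an unadjusted p under 0.05 the 2 terms held 2502 and 2452 genes. The rhythm differed between the sexes for 1 gene (0.00643%), Reg1, a secreted lectin of pancreas and gut (adjusted p = 0.038), with 854 genes at an unadjusted p under 0.05 and 5 by DESeq2. Reg1 reached 12.5 and 19.8 CPM in ZT18 replicates 3 and 4, in which the stomach gene Tff1 was also present, and 4.42 to 7.95 CPM in 3 other libraries, while the rest held at most 0.472 CPM.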

How the data were processed

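The authors sequenced 3′ tags of liver mRNA (BRB-seq), aligned them with STAR to mm10 and deposited raw counts per gene; the submitters' processing notes name HTSeq and featureCounts, and whether molecular identifiers were collapsed is not given in the sources used here. Of all reads, 15% to 20.1% were not aligned and 7.44% to 11.2% fell on no gene, and these were left out of library sizes. From the deposited counts, the 24 libraries were analysed in R 4.3.3. Genes with at least 100 counts over the 96 libraries (15548 of 55487) were fitted with edgeR 4.0.16 (TMM, quasi-likelihood, Benjamini-Hochberg over all genes tested, threshold 0.05) on a cosine and sine of 24 h, on ZT as a factor, on 12 h and 8 h terms, and on sex by rhythm. Adjusted p-values in the text come from these fits. Amplitudes, peaks and their SE came from least squares on DESeq2 1.42.0 variance-stabilized values. Coordinates were matched by symbol to RefSeq GRCm38.p6 for 95.1% of tested genes, where Bmal1 is listed as Arntl. The scripts were tested on simulated data.

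The members and lists were chosen with earlier results of these data known. Genes were named as all clock genes, anchor genes of each list, the 3 smallest p per list, the 12 largest amplitudes at a mean of at least 10 CPM, and the 3 smallest p per ZT step, direction and term; list members outside this rule were named after their values were seen. The alternatives that leave out all libraries of 1 ZT, and the contrast of ZT10 with the other times, were added after seeing the data. Promoter sequences were not analysed here. Some genes are not reported here.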

Additional observations from a re-analysis of the deposited data

Results flagged for a closer look

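In groups of 4 mice, 15 of 153 sets of values held 1 library far from the other 3 by Dixon's criterion, which chance gives in about 1 in 20. Among the clock genes, Arntl was 8.01 CPM in ZT10 replicate 3 against 2.66 to 3.46 CPM in the other ZT10 mice. Nr1d1 was 4.37 CPM in ZT14 replicate 2 against 1.2 to 1.47 CPM, and Tef was 73.3 CPM in ZT6 replicate 3 against 82.7 to 83.2 CPM. Among metabolic genes, Insig2 was 713 CPM in ZT22 replicate 1 against 470 to 503 CPM, Cyp7a1 was 83.2 CPM in ZT14 replicate 1 against 27.6 to 34.6 CPM, and G6pc was 355 CPM in ZT14 replicate 2 against 228 to 242 CPM. Cirbp was 55.8 CPM in ZT2 replicate 1 against 8.98 to 16.3 CPM.

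The same ZT2 replicate 1 had a summed level of T, B and NK cell genes of 42.1 CPM against 16.8 to 18.9 CPM. ZT10 replicate 3, which went against its genotype label, had a neutrophil sum of 131 CPM against 65.2 to 71.7 CPM and a T, B and NK cell sum of 26.6 CPM against 11.8 to 14.2 CPM. In ZT2 replicate 3, genes of pancreas, fat and muscle summed to 461 CPM against 22 to 32.9 CPM, with Ckm at 113 CPM. Tff1 was 155 CPM in ZT18 replicate 3 against 0 to 9.45 CPM. Mitochondrial transcripts took 3.12% of the reads in ZT2 replicate 4 against 5.99% to 6.58%, and ZT10 replicate 1 had 6470269 counts against 5515868 to 5609510. The rhythm of Reg1 differed between the sexes (adjusted p = 0.038, edgeR).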

How the results depend on the processing

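The number of rhythmic genes was 726 by a rank test written here after JTK_CYCLE, not by the published program. It was 285 with the column of the library names as a factor, 908 in males alone and 384 in females alone. It was 1342, 1190 and 1458 without the ZT10, ZT18 or ZT22 libraries, and leaving out 1 library gave 1812 to 2415. Median amplitude was 0.675 with the column, 0.454 in males, 0.577 in females and 0.399 without ZT18, and 0.311 to 0.329 leaving out 1 library. The test over all ZTs called 1004 genes without ZT10 and 2395 to 3296 leaving out 1 library. At an unadjusted p under 0.01, ZT2 to ZT6 held 509 genes, ZT14 to ZT18 210, ZT18 to ZT22 109, ZT22 to ZT2 1234, the 12 h term 1038, the 8 h alternation 1045 and sex by rhythm 192. DESeq2 gave 78, 11 and 2 for the first 3 of these steps, 774 for 12 h, 704 for 8 h and 5 for sex. With no filter beyond 1 count the steps held 345, 71, 43 and 947 genes, 12 h 911, 8 h 542 and sex 149. With sex as a covariate ZT2 to ZT6 held 39 genes, ZT18 to ZT22 4 and 8 h 494. Without the 2 libraries against their label, ZT2 to ZT6 held 31, ZT10 to ZT14 1213, ZT18 to ZT22 1, 12 h 215, 8 h 187 and sex 0. Sex by rhythm was also 0 with a minimum of 10 counts in 4 libraries and after thinning. Leaving out 1 library gave 0 to 84 genes for ZT2 to ZT6 (84 without ZT2 replicate 2), 1152 to 1932 for ZT6 to ZT10, 1241 to 2075 for ZT10 to ZT14, 0 to 6 for ZT14 to ZT18 (6 without ZT10 replicate 3) and 0 to 1 for ZT18 to ZT22. It gave 285 to 629 for ZT22 to ZT2 (285 without ZT22 replicate 4, 318 without ZT22 replicate 3), 170 to 582 for 12 h (170 without ZT10 replicate 4, 582 without ZT2 replicate 3), 184 to 533 for 8 h (184 without ZT10 replicate 2, 533 without ZT10 replicate 1) and 0 to 3 for sex. The cause of these changes was not tested. Of 158 named genes, 130 kept their side of the threshold in all 24 fits leaving out 1 library, and of 5688 alternatives for them 276 lost a call, 73 gained one and 0 reversed. Of 1332 alternatives for lists, 157 moved the count by over 1.5 times. No paired analysis was possible because each mouse was killed once, at 1 ZT. The labels carry no replicate numbers, so those used here only name the libraries. In the fits on ZT as a factor and those with 12 h and 8 h terms, p-values measure the spread between the 4 mice of each time. In the 24 h and sex by rhythm fits they also take in how far the ZT means lie from the cosine. The 4 mice of a ZT have neighbouring mouse numbers.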

Other observations

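Hepatocyte genes of other functions also changed over the day. Of 10 hepatocyte genes, 5 were called, 4 of them also without ZT10. Cyp2e1, a cytochrome P450 of the central lobule, peaked at ZT6.78, whereas Ttr, the thyroxine carrier of plasma, peaked at ZT19.2 and was not called without ZT10. Of 15 interferon-stimulated genes, 2 were called (13.3%, near the 14.6% of all genes), with 1 to 4 when 1 library was left out (4 without ZT2 replicate 3, ZT6 replicate 2, ZT10 replicate 3, ZT14 replicate 1 or ZT22 replicate 3, and 1 without ZT10 replicate 1 or 2). With all libraries the 2 were Isg15, with a peak at ZT8.65, and Bst2, in the dark phase. In the growth hormone list, Cux2, a factor with a known sex difference in liver, peaked at ZT4.12 and Stat5b at ZT18.8. These peaks come from a fit without a sex term, and ZT14 had 3 males and 1 female. With sex as a covariate, 0 of the 158 named genes, which include Cux2, lost a rhythm call. Among NRF2 targets, Srxn1 and Nqo1 peaked in the light phase, at ZT4.8 and ZT7.68, and Gsta1 and Gclc in the dark phase.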
